A study of Mus musculus with 24 samples.

Results

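The genes of the muscle acetylcholine receptor and the neuromuscular junction were followed in mouse cells given the lineage factors MyoD or NeuroD2. The 10 genes are the receptor subunits Chrna1, Chrnb1, Chrnd, Chrne and Chrng, the anchoring protein Rapsn, the kinase Musk with its adaptor Dok7, the agrin receptor Lrp4, and agrin itself, Agrn. Every probe set that the platform annotation assigned to 1 of these symbols was taken, whatever its values, which gave 14 probe sets out of the 34945 with a single gene symbol. Chrng had 3 probe sets, Dok7 and Agrn had 2 each, and the other 7 genes had 1 each.

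RNA was hybridised to 24 Affymetrix mouse arrays in 8 groups of 3. P19 cells, a mouse embryonal carcinoma line, carried MyoD lentivirus in batch 1 beside untransduced P19 cells of batch 1, and carried NeuroD2 lentivirus in batch 3 beside untransduced P19 cells of batch 3. Mouse embryonic fibroblasts (MEFs) carried MyoD lentivirus in batch 1 beside untransduced MEFs of batch 1, and were labelled as carrying NeuroD2 lentivirus in batch 2 beside untransduced MEFs of batch 2. All 12 MEF arrays came from fibroblasts of Myod-/-/Myf5-/- mice, so the untransduced MEFs lacked both genes too. P19 cells with a factor were harvested 72 hours after infection. MEFs with MyoD were put in a differentiation medium of low horse serum, insulin and transferrin at 48 hours, and were harvested 36 to 40 hours later. The labels state no such change of medium for the untransduced MEFs, so MyoD and the medium cannot be told apart in this comparison. The cells with a factor met 8 µg/ml polybrene during infection and had their medium renewed at 24 hours, which the labels do not state for the controls. The controls were untransduced rather than given an empty virus, so the virus, the polybrene and the renewed medium cannot be told apart from the factor. Nothing in the labels says whether the 3 arrays of a group came from separate cultures, so p-values measure the spread between these samples, which may be technical.

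The muscle acetylcholine receptor is a ligand-gated cation channel that opens when a motor nerve terminal releases acetylcholine. In fetal and denervated mouse muscle it is built from the alpha, beta, delta and gamma subunits (Chrna1, Chrnb1, Chrnd, Chrng), and after birth the epsilon subunit (Chrne) takes the place of gamma. Agrin binds LRP4, which activates the receptor tyrosine kinase MuSK together with DOK7, and rapsyn then gathers receptors under the nerve terminal. MyoD and myogenin are known to act on subunit gene promoters through E-boxes, sites with the core CANNTG.

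Values are log2 signal intensities as deposited. A difference is a factor's group mean minus the mean of the untransduced controls of its batch on that scale, with its standard error (SE). A probe set rose or fell where limma's two-sided test, fitted over all 24 arrays and all 34945 probe sets, gave an adjusted p under 0.05 (Benjamini-Hochberg). Among all tested values the median was 6.40, the lowest 3.08 and the highest 15.2. No detection calls were used here, so a value near 4 to 6 cannot be called presence or absence. RNA came from whole cultures, so fewer cells that express a gene and less RNA per cell cannot be told apart.

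A probe set of the transduced factor's gene rose in 3 of the 4 transduced groups. Whether these probe sets read the RNA made from the virus was not tested. Myod1 (1418420_at) rose by 3.94 on the log2 scale in P19 cells with MyoD and by 5.55 in MEFs with MyoD, and its second probe set differed by 0.10 and 0.06. Neurod2 (1418995_at) rose by 1.70 in P19 cells with NeuroD2, and its other 2 probe sets differed by 0.21 and 0.08. In MEFs labelled NeuroD2 its 3 probe sets differed by -0.06, 0.21 and -0.12, and none passed the test. Of 12 skeletal muscle marker genes, 12 rose in MEFs with MyoD (mean marker level per array 12.94 to 12.98 log2, against 5.18 to 5.25 in untransduced MEFs) and 9 rose in P19 cells with MyoD (8.19 to 8.22, against 6.19 to 6.37). Myog and Klhl41 were among the genes that rose in both cells, although the characteristics of the MyoD samples call them neuronally differentiated. All 11 neuron markers rose in P19 cells with NeuroD2 (9.65 to 10.31, against 7.23 to 7.61). Of these markers 1 rose in MEFs labelled NeuroD2, 1 in P19 cells with MyoD and 1 in MEFs with MyoD. Of the skeletal muscle markers 1 rose in P19 cells with NeuroD2. Of 9 fibroblast markers, 7 fell in MEFs with MyoD (11.65 to 11.77, against 13.42 to 13.51). None of 8 embryonal carcinoma markers changed with a factor in either cell, and of 5 motor neuron markers 2 rose, both in P19 cells with NeuroD2. Untransduced P19 replicate 2 of batch 1 stood apart from the other 23 arrays, with an upper quartile of 7.62 log2 against 8.23 to 8.39, and it was the high array of its group for Chrna1, Chrnd, Chrne, Rapsn, Musk, Dok7, the second Agrn probe set and all 3 Chrng probe sets, and the low array for Lrp4, Chrnb1 and Agrn (1426670_at). Results that rest on it are given with and without it.

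Promoter windows were available for 7 of the 10 genes in the RefSeq table (GRCm38.p6). They hold the 250 bases before an annotated transcript start, and those of Chrng, Chrna1, Chrnb1 and Chrne are shown because these 4 subunit genes responded in different ways. Capitals mark CAGCTG and CAGGTG, 2 forms of the E-box core CANNTG, read on both strands, and each such match is also a CANNTG match.
Chrng, chr1:87205561-87205810, strand plus: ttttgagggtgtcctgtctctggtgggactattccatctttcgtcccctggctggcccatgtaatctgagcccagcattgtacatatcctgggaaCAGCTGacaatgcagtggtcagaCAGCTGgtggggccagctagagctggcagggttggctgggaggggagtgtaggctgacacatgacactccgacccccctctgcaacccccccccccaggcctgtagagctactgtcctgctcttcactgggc
Chrna1, chr2:73580339-73580588, strand minus: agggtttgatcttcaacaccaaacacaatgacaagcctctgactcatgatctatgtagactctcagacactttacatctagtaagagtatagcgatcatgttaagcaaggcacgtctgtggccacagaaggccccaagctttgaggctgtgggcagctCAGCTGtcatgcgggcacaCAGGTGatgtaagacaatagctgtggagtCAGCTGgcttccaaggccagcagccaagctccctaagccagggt
Chrnb1, chr11:69795938-69796187, strand minus: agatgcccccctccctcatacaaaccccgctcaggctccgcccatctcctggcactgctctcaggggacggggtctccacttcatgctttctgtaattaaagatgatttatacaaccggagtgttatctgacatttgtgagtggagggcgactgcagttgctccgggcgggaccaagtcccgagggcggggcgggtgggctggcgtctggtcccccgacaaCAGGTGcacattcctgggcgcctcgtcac
Chrne, chr11:70619195-70619444, strand minus: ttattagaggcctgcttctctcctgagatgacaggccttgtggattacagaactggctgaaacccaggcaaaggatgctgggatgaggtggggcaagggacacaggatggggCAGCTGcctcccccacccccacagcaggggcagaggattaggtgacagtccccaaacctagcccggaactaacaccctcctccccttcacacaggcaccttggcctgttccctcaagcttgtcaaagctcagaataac
Chrng held CAGCTG at 2 places, 155 to 150 and 132 to 127 bases before the start. Chrna1 held it at 92 to 87 and at 44 to 39 bases, with a CAGGTG between them at 73 to 68. Chrnb1 held 1 CAGGTG at 29 to 24 bases and no CAGCTG, and Chrne held 1 CAGCTG at 138 to 133 bases beside 1 CCGGAA, the core of the N-box, at 76 to 71. Of the windows not shown, those of Dok7 and of Agrn held neither CAGCTG nor CAGGTG, and that of Musk held 1 CAGCTG. In all 32851 windows of the table, 13% held CAGCTG, 1.26% held it more than once, 17.2% held CAGGTG, 12% held CCGGAA and 66.2% held CANNTG. The windows of Chrnb1 and Chrne reach into the annotated gene, because they start from one of several transcript starts. Those of Musk, Dok7 and Agrn reach into the annotated gene too. The annotated Chrnb1 gene ends at base 69795966 and its window begins at 69795938, so its CAGGTG lies inside the annotated gene. Such matches describe the letters in these windows and are not shown to be sites. Chrnd and Chrng lie next to each other on chromosome 1, with Chrnd at bases 87190597 to 87200070 and Chrng at 87205811 to 87211835.

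The largest changes of the receptor genes were seen in MEFs given MyoD. Of the 14 probe sets, 9 rose and 1 fell, where 10.3% of all probe sets rose and 12.9% fell. At the level of genes 7 of 10 rose, 1 fell and 2 did not pass the test, and the median difference of the 14 probe sets was 3.25 on the log2 scale, against 0.003 over all probe sets. Subunits that rose were the 4 of the fetal receptor, and the adult epsilon subunit did not pass the test. The 12 muscle markers rose in the same arrays, with a median difference of 8.51, and their part in the members' changes was not tested.

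Chrng, the gamma subunit, had signals of 12.36, 12.22 and 12.30 (1449532_at) in MEFs with MyoD, against 5.75, 5.96 and 5.60 in untransduced MEFs. Its difference was 6.53 ± 0.19 (SE, limma adjusted p = 2.83e-16), a 92.3-fold rise. Chrna1, the subunit that carries most of the acetylcholine-binding site, had 9.37, 9.49 and 9.43, against 4.65, 4.68 and 4.77 in untransduced MEFs. All 3 arrays with MyoD were far above all 3 controls, with a difference of 4.73 ± 0.14 (26.5-fold, adjusted p = 5.5e-16). For Chrnb1, the beta subunit, the values were 11.19, 11.39 and 11.42 in MEFs with MyoD, against 5.99, 6.24 and 6.32, a difference of 5.15 ± 0.25 (35.5-fold, adjusted p = 9.35e-13). Chrnd, the delta subunit, had 10.13, 10.18 and 10.15, against 6.42, 6.22 and 6.27, a difference of 3.85 ± 0.12 (14.4-fold, adjusted p = 5.14e-16). On the probe sets given here for these 4 genes the MyoD and control arrays did not overlap, while on Chrng 1427728_at they did. The share of all probe sets without overlap was not counted. Chrne, the epsilon subunit, had 5.35, 5.38 and 5.36 in MEFs with MyoD, against 5.57, 5.40 and 5.22 in untransduced MEFs. Its groups overlapped, and the difference was -0.03 with a 95% confidence interval of -0.30 to 0.24 log2 (adjusted p = 0.946).

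**Figure D1:**
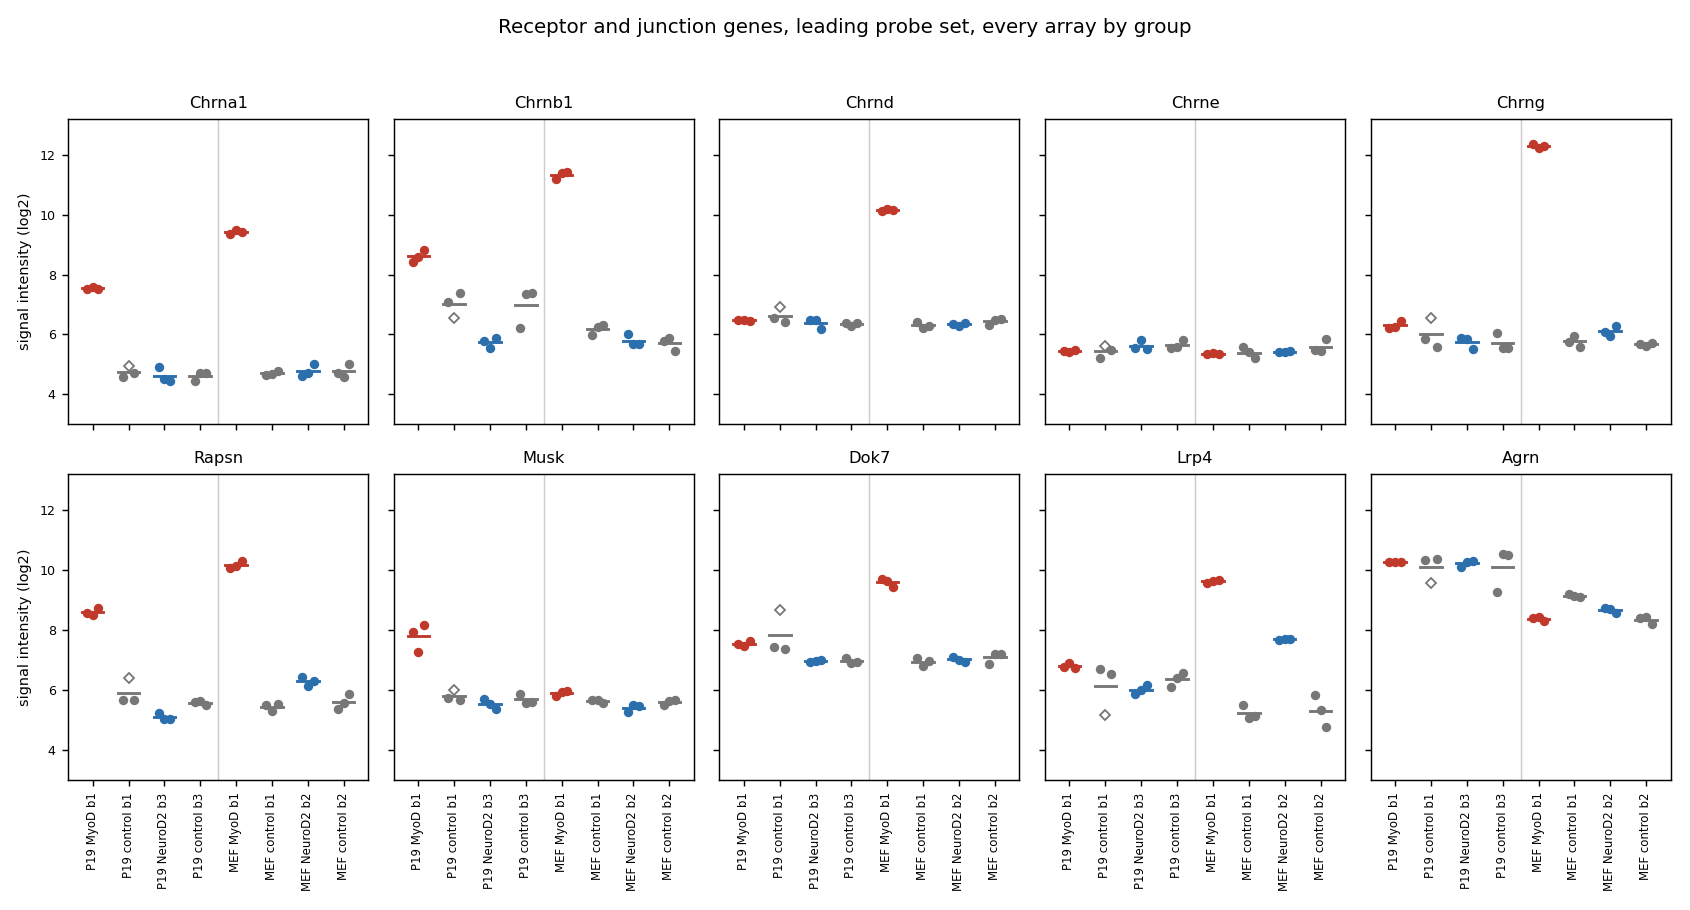
Log2 signal intensity (vertical axis) of the leading probe set of each of the 10 genes on every array, by group; b1, b2 and b3 are batches, bars are group means, red is MyoD, blue NeuroD2 and grey untransduced, and the open diamond is the P19 control array that stood apart. Chrng lies above 12 in MEFs with MyoD, against under 7 on all other arrays, Musk is high only among P19 cells with MyoD, and Chrne stays between 5.22 and 5.84 on all 24 arrays.

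Among the genes that gather the receptor, 3 of 4 muscle-side partners rose in MEFs with MyoD and Musk did not pass the test. Rapsn, which encodes the cytoplasmic protein that anchors receptor clusters, had 10.05, 10.14 and 10.31, against 5.49, 5.31 and 5.52 in untransduced MEFs, a difference of 4.73 ± 0.16 (26.5-fold, adjusted p = 4.35e-15). Lrp4 had 9.58, 9.64 and 9.66, against 5.49, 5.07 and 5.14, a difference of 4.40 ± 0.28 (21-fold, adjusted p = 1.32e-10). Dok7, the adaptor that activates MuSK from inside the cell, had 9.70, 9.63 and 9.44 (1434812_s_at), against 7.07, 6.81 and 6.95, a difference of 2.65 ± 0.22 (6.27-fold, adjusted p = 5.8e-09). Musk, the kinase itself, had 5.80, 5.92 and 5.96 in MEFs with MyoD, against 5.67, 5.66 and 5.55. The 3 MyoD arrays lay above the 3 controls by a narrow margin, and the difference of 0.26 ± 0.17 did not pass (adjusted p = 0.33; 0.00967 when only these 6 arrays entered the fit).

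Agrn, made by nerve and muscle and the ligand of LRP4, was the 1 member that fell in MEFs with MyoD. It had 8.40, 8.43 and 8.29 (1426670_at), against 9.19, 9.13 and 9.11 in untransduced MEFs of batch 1, a difference of -0.77 ± 0.24 (adjusted p = 0.0211). The call ended when any of 4 of the 6 arrays was left out, with adjusted p between 0.051 and 0.0721. Untransduced MEFs of batch 2 had 8.39, 8.44 and 8.20, in the range of the MEFs with MyoD and -0.80 ± 0.24 from the batch 1 controls (adjusted p = 0.0713; 0.00854 with the outlying P19 array left out of the fit). Its second probe set (1443980_at) differed by -0.11 ± 0.20 (adjusted p = 0.851).

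Several genes were read by more than 1 probe set, and these did not always move together. For Chrng, 1452520_a_at had 11.64, 11.61 and 11.56 in MEFs with MyoD, against 4.32, 4.23 and 4.11, a difference of 7.39 ± 0.20 (adjusted p = 6.02e-17). The third Chrng probe set, 1427728_at, had 4.39, 4.35 and 4.35, against 4.33, 4.03 and 4.35, a difference of 0.13 ± 0.23 (adjusted p = 0.842). It ranged from 3.98 to 5.69 over the 24 arrays, with its highest value on the P19 control array that stood apart. Over 24 arrays, which share cell type and batch, Pearson's r was 0.995 between the first 2 Chrng probe sets and 0.08 to 0.09 between either of them and the third. Dok7's second probe set (1442869_at) had 6.10, 6.19 and 5.90 in MEFs with MyoD, against 5.21, 4.86 and 4.96, a difference of 1.05 ± 0.29 (adjusted p = 0.0113). Both Dok7 probe sets rose, with r of 0.84 between them over the 24 arrays, while r between the Agrn probe sets was -0.18.

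**Figure D2:**
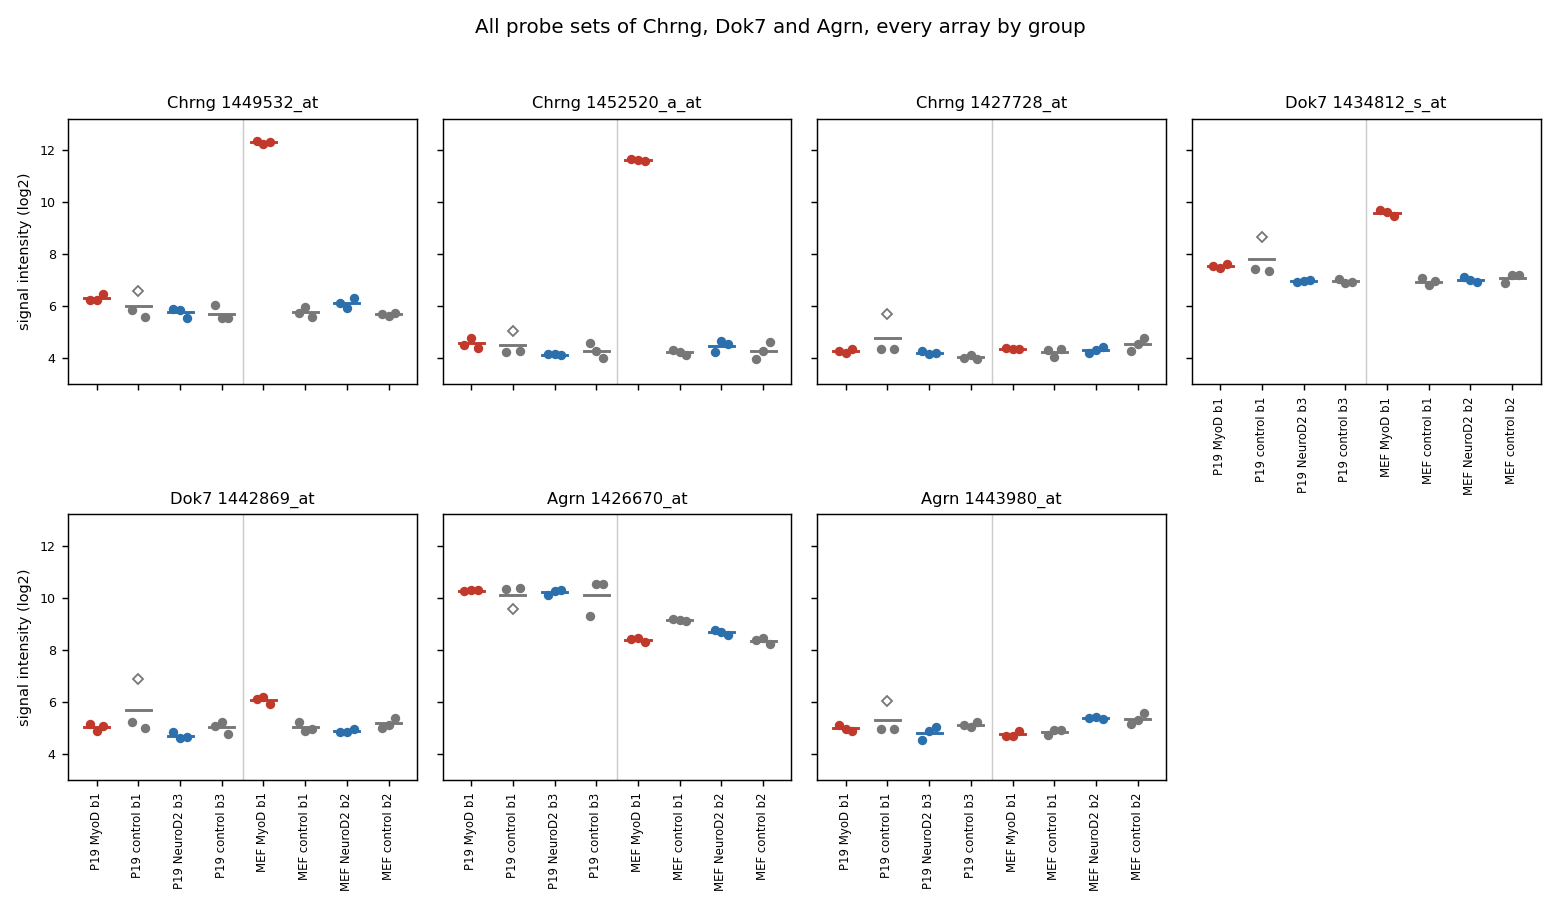
Log2 signal intensity (vertical axis) of all probe sets of Chrng, Dok7 and Agrn on every array, by group; colours, bars and the open diamond are as in the plot of leading probe sets. The third Chrng probe set stays near 4 in MEFs with MyoD, where the other two are above 11, and Agrn 1443980_at lies between 4.52 and 6.03 on all 24 arrays.

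In P19 cells given MyoD, 4 genes rose and none fell: the alpha and beta subunits, rapsyn and MuSK. These were 4 of 14 probe sets, where 1.99% of all probe sets rose and 0.478% fell, and the median difference was 0.11 for the 14 and 0.04 for all probe sets on the log2 scale. Musk had 7.92, 7.27 and 8.17 in P19 cells with MyoD, against 5.72, 6.01 and 5.67 in untransduced P19 cells of batch 1. All MyoD arrays were above all controls, with a difference of 1.99 ± 0.17 (3.96-fold, adjusted p = 1.7e-07). Chrna1 had 7.53, 7.57 and 7.52, against 4.57, 4.96 and 4.71, a difference of 2.79 ± 0.14 (6.94-fold, adjusted p = 8.98e-11). Rapsn had 8.56, 8.51 and 8.72, against 5.68, 6.39 and 5.65, a difference of 2.69 ± 0.16 (6.45-fold, adjusted p = 1.51e-09). For Chrnb1 the values were 8.41, 8.58 and 8.82 in P19 cells with MyoD, against 7.10, 6.55 and 7.38, a difference of 1.6 ± 0.25 (3.03-fold, adjusted p = 0.000653). With the outlying control array left out these differences were 2.09 for Musk, 2.90 for Chrna1, 2.93 for Rapsn and 1.37 for Chrnb1, and each passed the test. With only the 6 arrays of the comparison in the fit, Chrna1 and Rapsn passed, while Chrnb1 (adjusted p = 0.177) and Musk (0.0965) did not. Leaving out control replicate 1 or 3 of batch 1, so that the outlying array was 1 of 2 controls, brought the count of members to 7 of 14, with Lrp4 higher and Chrng 1427728_at and Dok7 1442869_at lower. Calls multiplied over the whole array as well. Without replicate 3, 40% of all probe sets passed in either direction, against 2.47% with all arrays.

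The delta and gamma subunits did not pass the test in P19 cells with MyoD. Chrnd had 6.48, 6.49 and 6.46 with MyoD, against 6.54, 6.93 and 6.41, and differed by -0.15 (95% confidence interval -0.39 to 0.09, adjusted p = 0.35). Chrng (1449532_at) had 6.23, 6.24 and 6.46, against 5.86, 6.57 and 5.59, a difference of 0.30 ± 0.19 (adjusted p = 0.258). Its control of 6.57 is the array that stood apart, and without that array it was 0.58, with an adjusted p of 0.0372. The other Chrng probe sets differed by 0.04 and -0.51 (adjusted p = 0.888 and 0.158). Lrp4 had 6.77, 6.88 and 6.73 in P19 cells with MyoD, against 6.69, 5.17 and 6.54, and its difference of 0.66 ± 0.28 (adjusted p = 0.149) became 0.18 with that array left out (adjusted p = 0.842). Dok7 (1434812_s_at) had 7.52, 7.47 and 7.63, against 7.43, 8.67 and 7.35, a difference of -0.28 ± 0.22 (adjusted p = 0.36), which was 0.15 without that array. Agrn had 10.26, 10.27 and 10.28, against 10.33, 9.57 and 10.38, and Chrne had 5.43, 5.43 and 5.49, against 5.22, 5.63 and 5.48. Neither passed the test, with differences of 0.18 ± 0.24 for Agrn (adjusted p = 0.593) and 0.01 for Chrne (adjusted p = 0.973).

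**Figure D3:**
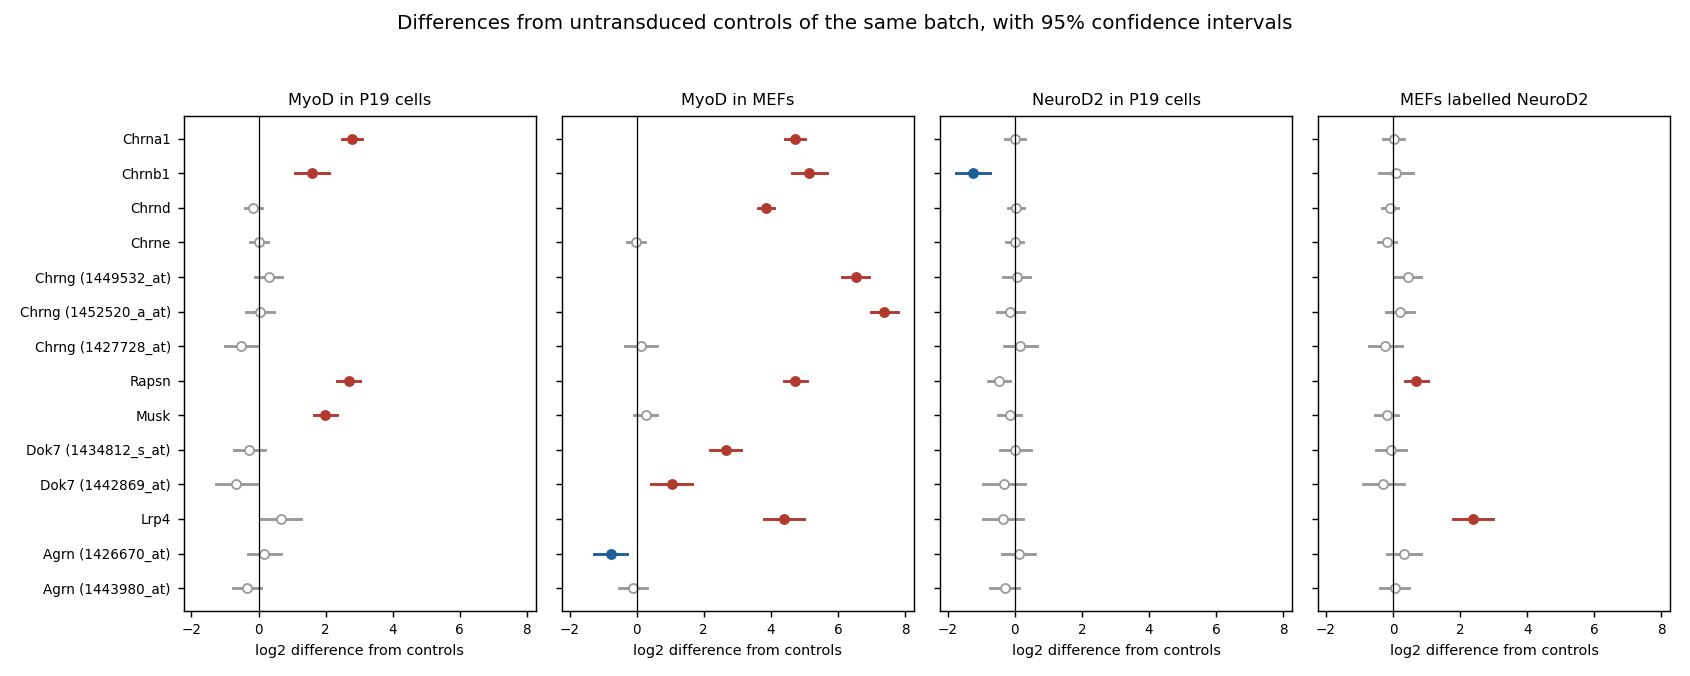
Log2 difference from untransduced controls of the same batch (horizontal axis) for each of the 14 probe sets, with 95% confidence intervals from limma, in the 4 comparisons; filled red points rose, filled blue points fell and open grey points did not pass the test. Rises in MEFs with MyoD reach 7.39 for Chrng (1452520_a_at), and Musk rises in P19 cells (1.99) but does not pass in MEFs (0.26).

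The response to MyoD was then compared between the 2 cell types, as the difference in MEFs minus the difference in P19 cells within batch 1. It was higher in MEFs for 9 probe sets and lower for 1, where 5.86% of all probe sets were higher and 13.3% lower. The excess in MEFs was 6.23 ± 0.27 and 7.34 ± 0.28 for the 2 responding Chrng probe sets, 4.0 ± 0.16 for Chrnd and 3.74 ± 0.40 for Lrp4 log2 units (adjusted p = 6.04e-13, 8.22e-14, 2.86e-13 and 6.97e-07). Genes that rose in both cells also rose more in MEFs, by 3.55 ± 0.35 for Chrnb1, 2.04 ± 0.23 for Rapsn and 1.93 ± 0.20 for Chrna1 (adjusted p = 1.81e-07, 1.41e-06 and 4.85e-07). Dok7 responded more in MEFs by 2.92 ± 0.31 and 1.71 ± 0.42 on its 2 probe sets (adjusted p = 5.25e-07 and 0.00545). Musk went the other way, with a response lower in MEFs and a difference of -1.72 ± 0.23 (adjusted p = 1.47e-05). Agrn's excess of -0.95 ± 0.34 did not pass (adjusted p = 0.0536), nor did Chrne's. The same 10 probe sets passed without the array that stood apart, with Musk at -1.83 and Dok7 1442869_at at 1.13. In that fit 27.8% of all probe sets passed in either direction. The medium given to MEFs with MyoD and the different harvest times are part of this comparison and cannot be told apart from the cell type.

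NeuroD2 in P19 cells changed 1 member. None of the 14 probe sets rose and 1 fell, where 4.75% of all probe sets rose and 2.59% fell. Chrnb1 had 5.78, 5.56 and 5.87 in P19 cells with NeuroD2, against 6.21, 7.35 and 7.39 in untransduced P19 cells of batch 3. The 3 NeuroD2 arrays lay below all 3 controls, of which replicate 1 was the low one, and the difference was -1.24 ± 0.25 (adjusted p = 0.00205; 0.0592 with only these 6 arrays in the fit). Rapsn had 5.24, 5.01 and 5.01, against 5.58, 5.62 and 5.48, without overlap, and its difference of -0.47 ± 0.16 did not pass (adjusted p = 0.0968; 0.00465 without the P19 control of batch 1 that stood apart, which enters this result through the shared estimate of the spread). Musk had 5.70, 5.51 and 5.37, against 5.87, 5.57 and 5.60, with overlap (adjusted p = 0.798). The 13 probe sets that did not pass differed by -0.47 to 0.17.

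MyoD and NeuroD2 were set against each other in P19 cells, each relative to its own batch's controls. MyoD's effect was higher for 4 probe sets and lower for none, where 2.26% of all probe sets were higher and 2.59% lower. The excess of MyoD over NeuroD2 was 3.16 ± 0.23 for Rapsn, 2.84 ± 0.35 for Chrnb1, 2.80 ± 0.20 for Chrna1 and 2.14 ± 0.23 for Musk (adjusted p = 1.17e-08, 1.62e-05, 1.1e-08 and 3.31e-06). For Chrnb1 the value adds a rise with MyoD to a fall with NeuroD2. Batch 1 and batch 3 differ between the 2 factors, and each effect was taken within its batch. MEFs with MyoD and MEFs labelled NeuroD2 were not compared in this way, because no Neurod2 probe set rose in the MEFs labelled NeuroD2.

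In MEFs labelled NeuroD2, 2 of the 14 probe sets rose and none fell, where 6.13% of all probe sets rose and 5.25% fell. Lrp4 had 7.67, 7.70 and 7.70 in MEFs labelled NeuroD2, against 5.84, 5.31 and 4.75 in untransduced MEFs of batch 2. The labelled arrays agreed closely and lay above all controls, which were spread over more than 1 log2 unit, and the difference was 2.39 ± 0.28 (5.24-fold, adjusted p = 2.94e-06). Rapsn had 6.43, 6.13 and 6.29, against 5.37, 5.55 and 5.87, a difference of 0.69 ± 0.16 (1.61-fold, adjusted p = 0.00643). Its call ended without control replicate 1 of batch 2, with a difference of 0.57 (adjusted p = 0.0513). Chrng (1449532_at) had 6.10, 5.94 and 6.29, against 5.68, 5.63 and 5.73, without overlap, and its difference of 0.43 ± 0.19 did not pass (adjusted p = 0.198; 0.0232 without the P19 control that stood apart). None of the 12 skeletal muscle markers rose in these arrays, whose mean marker level was 5.23 to 5.32, against 5.16 to 5.52 in the controls.

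Untransduced cells of the 2 types were also compared. In untransduced MEFs against untransduced P19 cells of batch 1, none of the 14 probe sets was higher and 6 were lower, where 25.3% of all probe sets were higher and 23.4% lower. The MEF minus P19 difference was -0.95 ± 0.24 for Agrn, -0.90 ± 0.28 for Lrp4, -0.87 ± 0.22 for Dok7 and -0.83 ± 0.25 for Chrnb1 on the log2 scale (adjusted p = 0.00236, 0.0124, 0.00227 and 0.00866). Without the array that stood apart these 4 were still lower, at -1.21 for Agrn, -1.38 for Lrp4, -0.45 for Dok7 and -1.06 for Chrnb1. These Agrn and Dok7 values are those of the leading probe sets. In untransduced P19 cells of batch 3 that of Dok7 averaged 6.95, against 6.94 in MEFs of batch 1. There Agrn (10.11), Lrp4 (6.36) and Chrnb1 (6.98) stayed above those MEFs (9.15, 5.23 and 6.18). The other Agrn and Dok7 probe sets did not pass, at -0.47 and -0.68 (adjusted p = 0.0659 and 0.0632). Without the array that stood apart they were at -0.11 and -0.09 (adjusted p = 0.551 and 0.629). Rapsn (-0.47) and Chrnd (-0.32) passed with that array and not without it (adjusted p = 0.148 and 0.135). Chrna1, Chrne, Chrng and Musk did not pass.

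Untransduced cells of the same kind also served as a measure of batch. In P19 cells of batch 3 against batch 1, 2 probe sets were lower, where 3.16% of all were lower, and none was higher, where 10.6% of all were higher. They were Dok7 1434812_s_at, at -0.86 ± 0.22 (adjusted p = 0.0137), and Chrng 1427728_at, at -0.75 ± 0.23 (adjusted p = 0.0381). With that outlying P19 array left out Dok7 was at -0.44 (adjusted p = 0.00726) and Chrng 1427728_at at -0.30 (adjusted p = 0.0878). Without replicate 3 of batch 1 the count was 6 of 14, where 39.6% of all probe sets passed in either direction. In MEFs of batch 2 against batch 1, 0 of 14 passed, where 3.65% of all probe sets differed in either direction, and the smallest adjusted p was 0.0713, for Agrn. With the outlying P19 array left out of the fit 3 of 14 passed, where 17.5% of all probe sets differed in either direction. The 2 Agrn probe sets went in opposite directions. Agrn 1426670_at was lower in batch 2, at -0.80, and Agrn 1443980_at was higher, at 0.48. Chrng 1427728_at was higher, at 0.30.

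Set in order over the 8 groups, Chrna1, Chrnb1 and Rapsn shared the same first 2 places, MEFs with MyoD and then P19 cells with MyoD. Each of these 2 groups lay clear of the next one with no overlap between arrays. Chrna1 averaged 9.43 in MEFs with MyoD and 7.54 in P19 cells with MyoD, against 4.44 to 5.02 (median 4.71) on the 18 arrays without MyoD, where neighbouring groups overlapped. Rapsn averaged 10.17 and 8.60, against 5.01 to 6.43 (median 5.57), with the MEFs labelled NeuroD2 in the third place. Chrnb1 averaged 11.33 and 8.61, against 5.46 to 7.39 (median 6.0), and the untransduced P19 groups followed. Chrnd and the 2 responding Chrng probe sets had MEFs with MyoD alone at the top, and their second place, P19 cells with or without MyoD, was not separate from the third. Lrp4 had 3 separate steps, at 9.63 in MEFs with MyoD, 7.69 in MEFs labelled NeuroD2 and 6.79 in P19 cells with MyoD. The third was narrow, with a lowest array of 6.73 against a highest of 6.69 in the P19 controls of batch 1. Its difference from those controls did not pass the test. For Musk the first place was held by P19 cells with MyoD at 7.79, and MEFs with MyoD at 5.89 were not separate from untransduced P19 cells of batch 1 at 5.80. On its leading probe set Agrn ran by cell type, with all 4 P19 groups above all 4 MEF groups. Those P19 groups averaged 10.09 to 10.27 and were not separate from each other. Chrne ranged from 5.22 to 5.84 on the 24 arrays, and in none of the 4 factor comparisons was its adjusted p below 0.584.

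Likeness to other genes was described by Pearson's r over the 24 arrays, among 16319 genes. These arrays share cell type, factor and batch, so r describes the shared steps between groups. Chrna1 was most like Cdh15 (r = 0.987), which encodes the muscle cadherin, and Klhl41 (0.987), a sarcomere-associated protein, and Rapsn was most like the same 2 genes (0.974 and 0.970). Chrng was most like Mybph (0.995), Tnnt3 (0.994) and Mymx (0.994), which encode a myosin-binding protein, fast troponin T and the fusion protein myomixer. Chrnd was most like Ctrb1 (0.996), Myoz2 (0.996) and Ckm (0.995), and Chrnb1 like Smyd1 (0.983), Tnnc2 (0.967) and Trim63 (0.966). Dok7 was most like Klhl40 (0.977), Dhrs7c (0.974) and Duoxa1 (0.971), and Lrp4 like Tacc1 (0.958), Mfap3l (0.953) and Ablim3 (0.940). Musk stood away from the muscle genes, with Rsad2 (0.955), Patl2 (0.905) and Cbln4 (0.876) as the nearest. Agrn was nearest to Stox2, Qars and Unc13b (0.978, 0.974 and 0.972), and for Chrne the best r was 0.697 (Slc7a8). Between members, r was 0.993 for Chrnd with Chrng and 0.981 for Chrna1 with Rapsn. For Musk it ran from -0.10 with Chrne to 0.54 with Rapsn, with 0.52 for Chrna1, 0.42 for Chrnb1 and 0.02 for Chrnd.

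Other genes of the junction were followed in 7 lists, with 1 probe set per gene, chosen by role. The counts below stand beside these shares of all probe sets. With MyoD 10.3% rose and 12.9% fell in MEFs, and 1.99% rose and 0.478% fell in P19 cells. With NeuroD2 4.75% rose and 2.59% fell in P19 cells, and in MEFs labelled NeuroD2 6.13% rose and 5.25% fell. Whether a list differs from these shares was not tested. Of the kinases and scaffolds that act below MuSK, 3 of 20 measured genes rose and 4 fell in MEFs with MyoD, and the median difference was 0.01 (0.003 over all probe sets). Fyn, a Src-family kinase, rose by 1.39 ± 0.17 (adjusted p = 1.85e-06) and the cytoskeletal linker Macf1 by 1.32 ± 0.20 (4e-05). Src fell by 1.04 (adjusted p = 4.21e-07) and Prkca, a protein kinase C, fell by 1.08 (5.58e-07). In P19 cells with MyoD none of the 20 passed, with a median of 0.28 against 0.04 over all probe sets.

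The dystrophin complex, which ties the postsynaptic membrane to the matrix, and the synaptic basal lamina had 9 of 21 measured genes higher and 4 lower in MEFs with MyoD (median 0.28). Sgca, alpha-sarcoglycan, averaged 10.76 in MEFs with MyoD, against 5.88 in untransduced MEFs, a difference of 4.88 ± 0.20 (adjusted p = 1.04e-13). The muscle laminin receptor subunit Itga7 rose by 4.6 ± 0.38, the syntrophin Sntb1 by 3.70 ± 0.28 and the laminin chain Lama2 by 2.48 ± 0.19 (adjusted p = 5.51e-09, 1.85e-09 and 2.26e-09). Utrn, the synaptic relative of dystrophin, averaged 11.14, against 10.82 in untransduced MEFs, and did not pass (difference 0.32 ± 0.14, adjusted p = 0.117). In P19 cells with MyoD 1 of 21 rose, Lama2 at 0.76 ± 0.19 (adjusted p = 0.0391). In MEFs labelled NeuroD2, 6 rose and 4 fell, among them Dmd, dystrophin, at 2.35 ± 0.23, and the synaptic laminin chains Lamb2 at 2.20 ± 0.28 and Lama5 at 1.99 ± 0.10 (adjusted p = 1.41e-07, 7.22e-06 and 1.53e-11). Nid2, a nidogen of the synaptic basal lamina, fell there by 1.91 (adjusted p = 3.4e-08). In P19 cells with NeuroD2, 1 rose (Ncam1, 1.47 ± 0.24, adjusted p = 0.000236) and 4 fell.

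Of 7 measured genes for acetylcholine breakdown and postsynaptic channels, 1 rose and 1 fell in MEFs with MyoD, where 10.3% of all probe sets rose and 12.9% fell. Ank1, an ankyrin, rose there by 3.54 ± 0.12 (adjusted p = 1.55e-15) and Ank3, another ankyrin, fell by 0.65 (0.00268). Ache, acetylcholinesterase, averaged 4.38 in MEFs with MyoD, against 4.27 in untransduced MEFs, and did not pass (adjusted p = 0.904). It rose in P19 cells with NeuroD2, where it averaged 5.73, against 4.47 in untransduced cells (1.26 ± 0.30, adjusted p = 0.00868). Colq, the collagen tail that holds acetylcholinesterase at the junction, did not pass in any of the 4 comparisons.

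Erbb3, a neuregulin receptor, averaged 11.54 in MEFs with MyoD, against 5.64 in untransduced MEFs, a difference of 5.89 ± 0.33 (adjusted p = 1.4e-11). It is also a Schwann cell gene, and was the 1 of the 4 glial genes measured that rose. The other 3 changed little, with Sox10 at 6.68 in MEFs with MyoD against 6.59 in untransduced MEFs of batch 1. S100b averaged 5.07 against 5.18, and Foxd3 4.90 against 5.02. The mean level of the 4, Erbb3 included, was 7.01 to 7.09 in MEFs with MyoD, against 5.53 to 5.70 in untransduced MEFs. Only Erbb3 was clearly higher, and the part of glial cells in the result was not tested. Of the 8 neuregulin and ErbB genes, Erbb2 also rose there (0.55 ± 0.12) and Nrg1 fell by 1.25. In P19 cells with MyoD Erbb3 averaged 7.89, against 7.61, and did not pass (adjusted p = 0.547), and in P19 cells with NeuroD2 it fell by 1.31 (adjusted p = 0.016).

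Among 8 genes of synaptic and activity-dependent transcription, Myog and Hdac9 rose with MyoD in both cells. Myog averaged 14.03 in MEFs with MyoD, against 5.24 in untransduced MEFs, and 7.85 in P19 cells with MyoD, against 5.31 in untransduced P19 cells. Hdac9, a class II histone deacetylase, rose by 1.91 ± 0.28 in MEFs and 1.52 ± 0.28 in P19 cells (adjusted p = 1.69e-05 and 0.00352). Dach2, which in mouse muscle restrains myogenin, fell by 0.77 in MEFs (adjusted p = 0.000435), and Runx1 rose there by 1.20 ± 0.26 (0.00164). Of the 10 genes for receptor assembly and glycosylation, 5 fell and none rose in MEFs with MyoD (median -0.34), among them the glycosylation enzymes Dpagt1, which fell by 0.68, and Alg2, which fell by 0.52 (adjusted p = 0.0171 and 0.0379), and none passed in the other 3 comparisons.

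The neuronal acetylcholine receptor subunits, relatives of the muscle subunits that form the receptors of neurons and ganglia, had 4 of 10 measured genes higher in P19 cells with NeuroD2 and none lower (median 0.25, against -0.04 over all probe sets). Chrnb4 averaged 7.65 with NeuroD2, against 4.58 in untransduced P19 cells, a difference of 3.07 ± 0.19 (adjusted p = 4.53e-10). Chrna3 rose by 1.17 ± 0.28, Chrna5 by 1.15 ± 0.30 and Chrna4 by 1.07 ± 0.15 (adjusted p = 0.0122, 0.0176 and 3.5e-05). The 11 neuron markers rose in the same arrays, and their part in this was not tested. In P19 cells with MyoD, Chrna4 was the 1 neuronal subunit that rose (0.85 ± 0.15, adjusted p = 0.00227). Chrna7 fell by 1.13 in MEFs with MyoD (adjusted p = 0.0252) and rose by 1.63 ± 0.36 in MEFs labelled NeuroD2 (adjusted p = 0.00332).

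**Figure D4:**
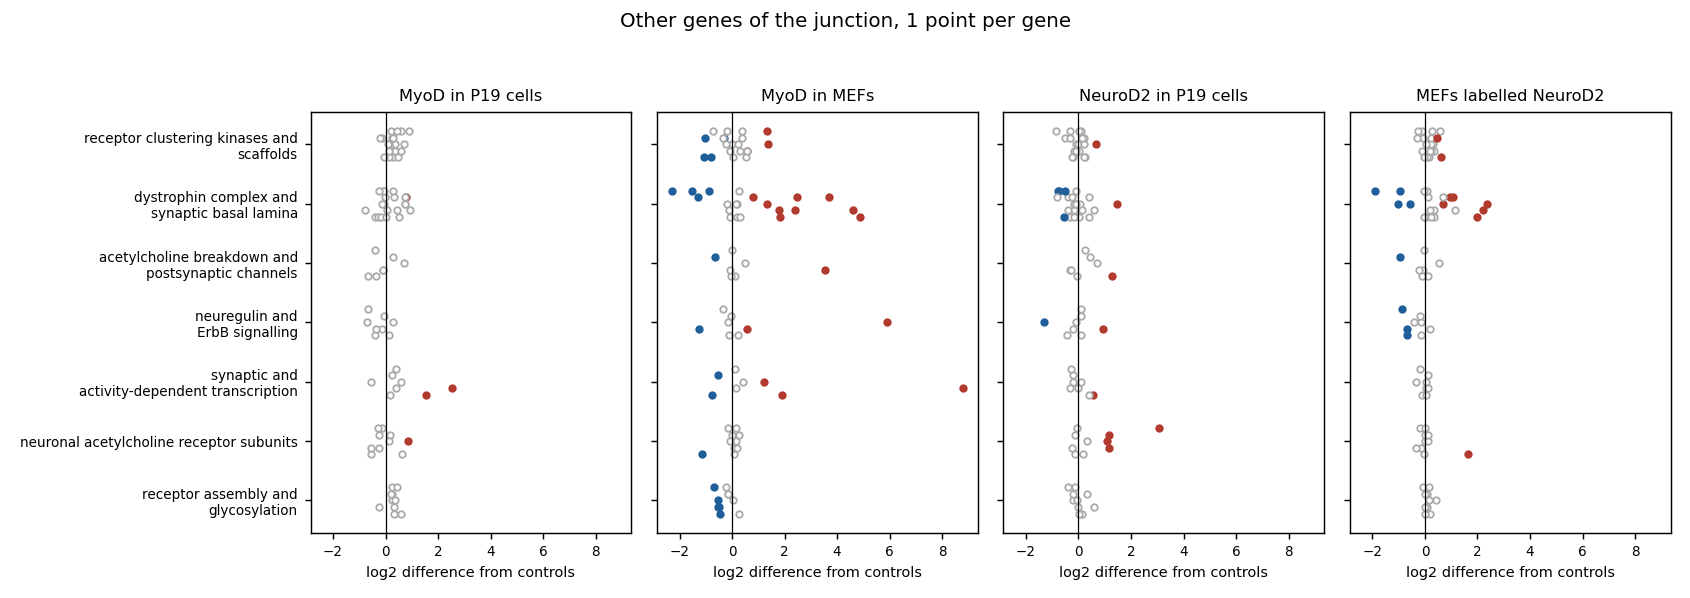
Log2 difference from untransduced controls of the same batch (horizontal axis) for each measured gene of the 7 lists (vertical axis), 1 point per gene; filled red points rose, filled blue points fell and open grey points did not pass the test. Points beyond 3 in MEFs with MyoD are Myog (8.79), Erbb3 (5.89), Sgca (4.88), Itga7 (4.6), Sntb1 (3.70) and Ank1 (3.54), and the point beyond 3 in P19 cells with NeuroD2 is Chrnb4 (3.07).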

How the data were processed

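RNA was measured on Affymetrix arrays, and the authors deposited 1 log2 signal intensity per probe set and array. Column quartiles of 23 arrays nearly coincide, and those of untransduced P19 replicate 2 of batch 1 do not. How background was corrected and probes were summarised is not stated. Per the submitters' processing notes limma was used, with no version stated. The values were not scaled further.

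Of 45101 probe sets, those without a symbol (9160), those with several (932) and 64 array controls were left out. A mean per group was fitted to the other 34945 over 24 arrays with limma 3.58.1 in R 4.3.3 and empirical Bayes, with Benjamini-Hochberg adjustment over all 34945. The fit was tested on simulated data. A gene's leading probe set has the highest mean over the arrays. All member probe sets are named. From the lists, up to 4 called genes per comparison with the largest differences could be named, with Ache, Colq, Utrn and Erbb3, and for likeness the 3 genes with the highest r. The members and lists were chosen with earlier results of these data known. Some listed genes are not reported here. Promoter sequences and gene positions are RefSeq's (GRCm38.p6). Precision is limited by 3 arrays per group. Alternatives were other normalizations, 1 probe set per gene, filters on dim and on shared probe sets, fits of only the groups compared, the replicate number as a block, other controls and leaving out each array.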

Additional observations from a re-analysis of the deposited data

Results flagged for a closer look

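The response to MyoD differed between MEFs and P19 cells, by the test of the difference itself, for 10 probe sets of 8 genes, given here as the log2 difference from controls in MEFs minus that in P19 cells. It was 6.23 and 7.34 for the Chrng probe sets 1449532_at and 1452520_a_at, 4.0 for Chrnd, 3.74 for Lrp4 and 3.55 for Chrnb1. For Dok7 it was 2.92 and 1.71, for Rapsn 2.04 and for Chrna1 1.93. Musk was at -1.72, the 1 member whose response was lower in MEFs.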

How the results depend on the processing

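Over the alternatives, 126 member differences gave 1777 values, of which 1705 stayed on the same side of the threshold, 31 lost the call, 41 gained one and 0 reversed; in 94 of the 1705 the sign differed with neither value passing. Settings that moved a count are given as member probe sets called, or as the percent of all probe sets called in either direction; the cause was not tested. Quantile normalization: MEF controls between batches 1 member and 7.05%. Median shift: 1 member there. With 1 probe set per gene, 1 member between P19 control batches and 2.28% between MEF control batches. Without dim probe sets (21154 tested, so fewer enter): 4.41% for MyoD in P19 cells, 35.8% for MyoD in MEFs, 17.4% for MEFs labelled NeuroD2, 30.6% for the MyoD effect between cells, 7.64% for MyoD minus NeuroD2, 1 member and 22.7% between P19 control batches, and 5.58% between MEF control batches. Without probe sets that can match several transcripts: 1 member in MEFs labelled NeuroD2 and 1 between P19 control batches. Fitting only the groups compared gave 2 members and 0.146% for MyoD in P19 cells, 46.8% for MyoD in MEFs, 4 members and 25.1% for MEFs labelled NeuroD2, 1 member and 25% for MEFs against P19 cells, 1.46% for MyoD minus NeuroD2, 0 members and 0% between P19 control batches, and 2 members and 17.0% between MEF control batches. P19 controls of batch 3 in place of batch 1 gave 10.1% for MyoD in P19 cells.

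With the replicate number as a block, 0 members and 1.87% passed between P19 control batches and 1.16% between MEF control batches. The labels tie a number to no shared source, and correlations of same-numbered deviations ran from -0.206 to 0.339, so the numbers were not taken as pairs.

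Leaving out 1 array at a time gave, for MyoD in P19 cells, 4 to 7 members and 1.04% to 40.0%; MyoD in MEFs, 9 to 10 and 18.9% to 37.6%; NeuroD2 in P19 cells, 1 to 2 and 4.92% to 19.4%; MEFs labelled NeuroD2, 1 to 3 and 8.67% to 24.5%; MEFs against P19 cells, 4 to 8 and 41.9% to 57.6%; the MyoD effect between cells, 10 to 12 and 15.5% to 29.9%; MyoD minus NeuroD2, 4 to 5 and 3.44% to 12.1%; P19 control batches, 1 to 6 and 8.51% to 39.6%; MEF control batches, 0 to 3 and 2.03% to 17.5%. The 7 members for MyoD in P19 cells came without control replicate 1 or 3 of batch 1, which leaves the array that stood apart as 1 of 2 controls. Low signals limit what can be seen.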
